A study of Mus musculus with 6 samples.

Results

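The regions described here are 3725 genomic sites, in mouse gastric corpus epithelium, at which YAP was found away from gene ends in a YAP-driven tumor and at which the histone mark H3K27ac was found in both the tumor and the normal stomach. They were chosen from deposited lists of peak summits, each 1 bp wide. A tumor YAP site was a pair of mutually nearest summits of both tumor YAP libraries within 200 bp, placed at the midpoint, on chromosomes 1 to 19 and X. Of 29468 such sites, 9590 lay within 1 kb of the start or end of a protein-coding gene (GRCm38 annotation) and were set aside. Another 599 had a summit of a normal YAP library within 200 bp and were set aside too. Of the 19279 distal sites that remained, 3725 had a summit within 1 kb in both H3K27ac lists (19.3%) and are called members. The other distal sites were 2258 with H3K27ac in the tumor list only, 1749 with H3K27ac in the normal list only and 11547 with neither.

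The series holds 6 libraries of chromatin immunoprecipitation sequencing, read as pairs of 50 bp. The tumor group has 2 YAP libraries and 1 H3K27ac library, and its genotype is given as CluCreERT2;R26rtTA;HA-Yap+, in which a tamoxifen-inducible Cre is placed at the Clu locus, so that induction depends on where Clu is active, and an HA-tagged Yap is switched on by doxycycline. The normal group, labelled WT, has 2 YAP libraries and 1 H3K27ac library. Per the labels, all groups carry the same treatment text, 2 mg of tamoxifen on each of 5 days and then doxycycline food for 14 days before collection; the epithelium was detached with EDTA, and its cells were fixed and stored frozen, uncultured. Whether a group's libraries stem from different animals is not stated.

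The words inside the peak names contradict 2 of the labels. The library labelled YAP normal 2 carries the word of the tumor H3K27ac library (Clu_Yap), and the library labelled YAP tumor 1 carries the word cre, which the normal H3K27ac library and YAP normal 1 also carry. The labels were followed. Without YAP tumor 1, so that every summit of YAP tumor 2 was a site, 5402 members were found, of which 30.75% lay at a listed transcript start. Without YAP normal 2 there were 3863 members and 32.84% at a listed start, against 3725 and 32.66% with all libraries. The 4 YAP lists held 38227 and 53831 summits in YAP tumor 1 and 2, against 1574 and 2121 in YAP normal 1 and 2. The H3K27ac lists held 66532 summits in the tumor and 22386 in the normal stomach. Sequencing depth is unknown for these lists and bears on how many summits a caller returns. Within 1 kb of a gene end, H3K27ac was found at 16 of 20 parietal cell genes in the tumor and 14 of 20 in the normal stomach, and at 9 and 10 of 14 chief cell genes, the acid-secreting and enzyme-secreting cells of this tissue. Atp4a and Atp4b, which encode the gastric proton pump, were among them in both tissues. Endocrine and tuft cell genes had a summit at 12 of 18 genes in the tumor and 0 of 18 in the normal stomach, and squamous genes at 8 of 14 and 0 of 14. Neck and metaplasia genes had 14 and 7 of 20, and stroma, muscle and endothelial genes 9 and 5 of 18. Intestinal or other organ genes had 8 and 5 of 16, and immune genes 3 and 1 of 20. Pit cell genes went the other way, with 7 and 9 of 14. The tumor list is the longer one and the share over all genes is not given here, so these counts alone show no gain or loss of a cell type. The part of these cells in the results below was not tested. In tissue of mixed cells, fewer cells with a mark and less of the mark per cell cannot be told apart.

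YAP is a transcriptional coactivator that the Hippo kinases hold in the cytoplasm. In the nucleus it binds no DNA itself and is brought to promoters and enhancers mainly by TEAD proteins, often beside AP-1 factors of the Fos and Jun families. H3K27ac is a mark of active promoters and active enhancers. Sites away from genes that carry it are commonly read as candidate enhancers.

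The label distal held for only part of the members. A RefSeq table of transcript starts (GRCm38.p6) lists several starts for many genes, also starts of long non-coding RNAs, and it covers all the chromosomes used here except 18. Of the 3610 members on those chromosomes, 1179 lay within 1 kb of a listed start (32.7%, Wilson 95% interval 31.2 to 34.2), against 9.88% of all distal sites. The starts were protein-coding for 867 members and long non-coding for 312, and 912 members lay within 250 bp of one. The remaining 2431 members lay over 1 kb from any listed start. Among distal sites of the other kinds the share at a listed start was 11.1% (9.89 to 12.52) with H3K27ac in the tumor only, 5.91% (4.89 to 7.14) with H3K27ac in the normal stomach only and 2.86% (2.57 to 3.19) with none. These intervals, like all below, cover counting error only. The intervals of the 4 kinds do not overlap.

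Sequences of the windows around listed starts, 250 bases before to 50 after, show what lies under these members. There were 639 windows with a member in them, belonging to 591 genes. Of the 13954 listed starts over 1 kb from a protein-coding gene end, 637 held a member (4.56%). The 8 printed here are those with the best YAP rank, then the best with the TEAD core GGAATG, with both that core and the AP-1 site TGANTCA, and with TGANTCA alone, each gene once. Capitals mark GGAATG and TGANTCA on either strand (CATTCC is the reverse complement of GGAATG). Each is RefSeq sequence, read 5′ to 3′ along the strand given.
Gm34157, chr9:61370441-61370740, - strand: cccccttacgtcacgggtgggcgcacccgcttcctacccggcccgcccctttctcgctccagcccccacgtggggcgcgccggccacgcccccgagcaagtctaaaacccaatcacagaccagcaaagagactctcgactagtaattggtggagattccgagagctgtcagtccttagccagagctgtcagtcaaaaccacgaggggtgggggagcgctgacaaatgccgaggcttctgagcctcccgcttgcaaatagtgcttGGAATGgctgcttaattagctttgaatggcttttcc
Skp1, chr11:52231745-52232044, + strand: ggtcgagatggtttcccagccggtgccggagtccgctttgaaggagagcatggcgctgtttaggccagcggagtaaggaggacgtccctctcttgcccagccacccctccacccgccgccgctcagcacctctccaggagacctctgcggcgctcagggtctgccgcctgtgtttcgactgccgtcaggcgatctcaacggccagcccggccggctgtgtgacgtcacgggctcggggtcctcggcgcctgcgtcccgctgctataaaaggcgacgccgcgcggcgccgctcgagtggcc
Cox5a, chr9:57520982-57521281, + strand: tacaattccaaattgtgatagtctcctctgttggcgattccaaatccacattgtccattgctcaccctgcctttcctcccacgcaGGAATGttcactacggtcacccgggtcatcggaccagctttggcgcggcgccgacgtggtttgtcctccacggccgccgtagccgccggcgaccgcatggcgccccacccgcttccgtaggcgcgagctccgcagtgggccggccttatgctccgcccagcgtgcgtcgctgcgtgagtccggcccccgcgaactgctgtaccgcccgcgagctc
Cnot8, chr11:58104059-58104358, + strand: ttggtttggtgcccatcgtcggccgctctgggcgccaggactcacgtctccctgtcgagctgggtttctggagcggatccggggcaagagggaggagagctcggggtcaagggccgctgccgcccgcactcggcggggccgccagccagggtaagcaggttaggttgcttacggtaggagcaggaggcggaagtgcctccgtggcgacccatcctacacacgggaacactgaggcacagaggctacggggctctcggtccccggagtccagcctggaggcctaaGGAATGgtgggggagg
Bcl9, chr3:97227315-97227614, - strand: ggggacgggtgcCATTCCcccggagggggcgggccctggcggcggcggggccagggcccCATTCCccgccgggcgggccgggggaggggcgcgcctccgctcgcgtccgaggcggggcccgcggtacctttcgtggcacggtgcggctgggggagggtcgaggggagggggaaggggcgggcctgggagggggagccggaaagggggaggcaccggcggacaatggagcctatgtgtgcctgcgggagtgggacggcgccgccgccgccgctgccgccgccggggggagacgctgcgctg
Fgd4, chr16:16560170-16560469, - strand: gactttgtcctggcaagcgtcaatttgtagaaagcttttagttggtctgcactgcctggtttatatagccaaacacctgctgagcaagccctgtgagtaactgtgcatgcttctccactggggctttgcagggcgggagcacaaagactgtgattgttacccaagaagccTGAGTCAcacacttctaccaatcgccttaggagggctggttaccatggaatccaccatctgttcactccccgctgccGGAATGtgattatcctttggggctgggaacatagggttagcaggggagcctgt
Gm39098, chr7:130645908-130646207, - strand: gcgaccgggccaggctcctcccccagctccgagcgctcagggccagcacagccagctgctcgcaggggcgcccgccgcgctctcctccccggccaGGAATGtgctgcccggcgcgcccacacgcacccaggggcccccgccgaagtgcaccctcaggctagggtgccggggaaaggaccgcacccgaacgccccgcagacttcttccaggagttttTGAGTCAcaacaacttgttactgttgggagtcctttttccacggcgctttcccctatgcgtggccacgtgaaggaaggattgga
9430083M05Rik, chr4:152325656-152325955, - strand: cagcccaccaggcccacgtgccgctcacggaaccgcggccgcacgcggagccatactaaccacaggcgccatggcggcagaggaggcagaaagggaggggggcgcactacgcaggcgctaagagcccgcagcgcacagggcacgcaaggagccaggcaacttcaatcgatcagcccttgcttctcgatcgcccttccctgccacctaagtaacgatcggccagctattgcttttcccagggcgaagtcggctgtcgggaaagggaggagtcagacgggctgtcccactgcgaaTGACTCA

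At the Skp1 window, which belongs to a gene of the SCF ubiquitin ligase, the YAP scores were 71.8 in YAP tumor 1 and 74.0 in YAP tumor 2, and neither motif was present. The score, as the authors deposited it, is a −log10 significance. Whether it stands for p-values or for adjusted values is unstated, so it was used to rank summits inside 1 list only. Where tumor and normal H3K27ac scores are given side by side, each holds within its own list. A higher score in 1 of them is not by itself a gain or loss of the mark. At the start of Gm34157, a long non-coding gene beside Tle3, the YAP scores were 83.4 in YAP tumor 1 and 105.3 in YAP tumor 2, the highest mean rank of any member inside a start window. Cox5a, which encodes a subunit of cytochrome c oxidase, had YAP scores of 31.9 and 54.0 in YAP tumor 1 and 2, 58 bp before its start. Bcl9, a partner of beta-catenin, held 2 copies of the TEAD core.

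The letters of these windows were counted over all 639, and 4 of the 20 patterns searched are given in full. GGAATG was in 77 of the windows with a member (12.1%, 9.75 to 14.8), against 14.6% of all 32619 windows. TGANTCA was in 31 (4.85%, 3.44 to 6.80), against 7.85% of all windows. Both motifs were present in 4 windows and neither in 535. The windows with a member were rich in G and C, with a median of 64% against 53% over all windows, and in the range of GC content that holds the middle of them GGAATG was in 11.35% of windows with a member, against 11.45% of all windows. In the same range TGANTCA was in 3.99% of windows with a member, against 4.17% of all windows. The GC box GGGCGG, a site of SP and KLF factors, was in 434 windows with a member (67.9%, 64.2 to 71.4), against 35.9% of all windows, and in the same GC range in 72.1% against 70.6%. The ETS core CCGGAA was in 168 (26.3%, 23.0 to 29.8), against 15% of all windows, and in the same GC range in 30.1% against 27.4%. Within that range the shares lay close together for all 4 motifs. In the 308 windows with a distal site of another kind, whose median GC content was 53.67% and which were not matched to the others for it, TGANTCA was in 14.6% (11.1 to 18.99) and GGGCGG in 32.8% (27.8 to 38.2). A match is a description of letters, not a binding site, and the sequence of the members outside these windows was not analysed here.

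At members near a listed start, YAP and H3K27ac were not at the same place. The YAP site lay at a median of 34 bp after the start (quartiles −94 and 131 bp). The nearest tumor H3K27ac summit lay at 178 bp after it (46.5 and 262 bp) and the nearest normal H3K27ac summit at 190 bp after it (−12.5 and 276 bp). The YAP site was downstream of the start in 57.1% of these members (54.2 to 59.9), the tumor H3K27ac summit in 78.4% (75.9 to 80.6) and the normal H3K27ac summit in 74.5% (71.9 to 76.9). YAP thus sat over the start itself, and H3K27ac in both tissues mostly past it.

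**Figure D1:**
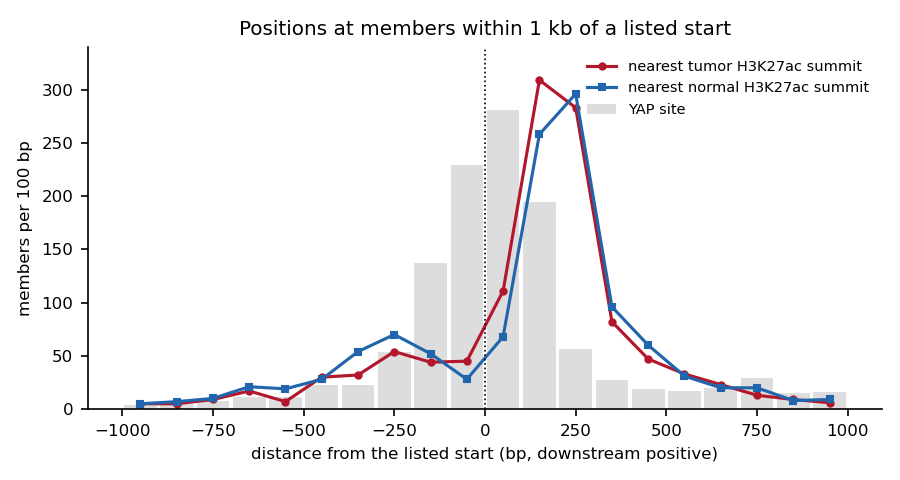
Number of members per 100 bp of distance from the listed start, for the 1179 members within 1 kb of one. Grey bars are the YAP sites, red circles the nearest tumor H3K27ac summits and blue squares the nearest normal H3K27ac summits; YAP peaks at 281 members in the first 100 bp after the start, the tumor H3K27ac summits at 309 between 100 and 200 bp and the normal ones at 296 between 200 and 300 bp.

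YAP ranked higher at members than at the other distal sites in both tumor libraries. The rank is given as a percentile within each list, 100 being the best score. Members had a median percentile of 65.95 in YAP tumor 1 and 75.64 in YAP tumor 2. Sites with H3K27ac in the tumor only had 44.3 and 58.2, those with H3K27ac in the normal stomach only 51.8 and 64.1, and those with none 43.0 and 57.2. The order was the same in both libraries. At percentile 90 or above in both lists were 438 members (11.8%, 10.8 to 12.8), against 10.3% of all tumor YAP sites, gene ends included, and 1.86%, 2.12% and 1.15% of the other 3 kinds. Members therefore held most of the 650 distal sites of that rank, and their share was close to that of all tumor YAP sites. Across members the 2 tumor scores had a Spearman correlation of 0.811, against 0.594, 0.602 and 0.536 across the sites of the other 3 kinds; sites share their libraries and are not independent. The paired summits lay a median of 56 bp apart.

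Rank differed with distance from listed starts. Members at a listed start had median percentiles of 74.7 in YAP tumor 1 and 82.4 in YAP tumor 2, and members over 1 kb from any listed start had 61.1 and 71.9. Sites over 1 kb from any listed start with H3K27ac in the tumor only had 44.1 and 57.8, those with H3K27ac in the normal stomach only 51.5 and 63.7, and those with none 43.1 and 57.1. Without the members at starts, the members thus still had the highest median of the 4 kinds in both libraries. No test was made of these differences, since all of these lists entered the choice of members.

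**Figure D2:**
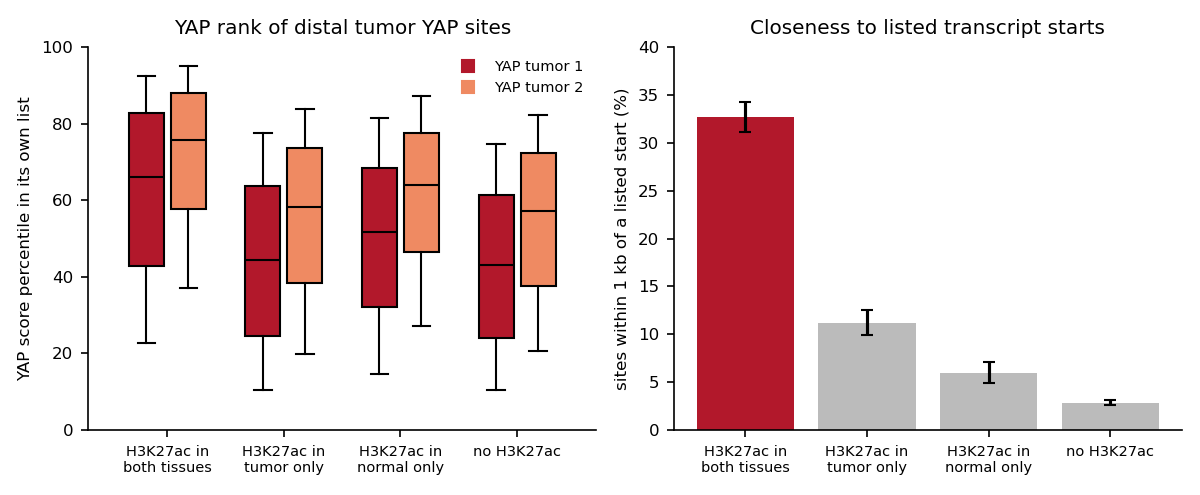
Left, percentile of the YAP score within the list of YAP tumor 1 (red) and YAP tumor 2 (orange) for members and the other 3 kinds of distal site; boxes span the quartiles, lines are medians and whiskers reach from the 10th to the 90th percentile of the sites. Right, share of each kind within 1 kb of a listed transcript start, with Wilson 95% intervals; members reach 32.7% and sites without H3K27ac 2.86%.

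YAP rank was highest where H3K27ac at the same site ranked highest. In the 932 members with the weakest tumor H3K27ac, the median YAP percentiles were 57.9 in YAP tumor 1 and 69.1 in YAP tumor 2, in the next 931 they were 57.2 and 70.8, in the next 64.5 and 74.65, and in the 931 with the strongest 82.0 and 87.5. Most of the difference thus lay in the strongest set. By normal H3K27ac, the 932 weakest had 51.6 and 64.6 and the 931 strongest 82.9 and 88.0. The share of members at a listed start moved along, being 11.02% in the weakest and 62.8% in the strongest of these sets by tumor H3K27ac. Among the members over 1 kb from any listed start, the Spearman correlation of the YAP score with the tumor H3K27ac score was 0.195 in YAP tumor 1 and 0.182 in YAP tumor 2, and with the normal H3K27ac score 0.319 and 0.310. The tumor YAP scores thus followed the H3K27ac rank of the normal stomach at least as closely as that of the tumor, in both libraries; each correlation describes sites of shared libraries and carries no p-value.

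H3K27ac summits of both tissues lay close to each other at members. The nearest tumor and normal H3K27ac summits were a median of 78 bp apart and within 100 bp of each other at 56.6% of members (55.02 to 58.2). From the YAP site, the nearest tumor summit was a median of 193 bp away and the nearest normal summit 232 bp. Summits on both sides of the YAP site within 1 kb were found at 304 members in the tumor (8.16%, 7.32 to 9.08) and at 630 in the normal stomach (16.9%, 15.7 to 18.2). A flanked site needs 2 or more summits within 1 kb. Members with 2 or more numbered 445 in the tumor list (11.95%) and 740 in the normal list (19.9%). The flanked shares cannot exceed these, so they depend on how many summits each list holds near a site.

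The rank of H3K27ac at members depended on how the lists were set against each other. In the full lists the best summit within 1 kb had a median percentile of 82.6 in the tumor and 55.3 in the normal stomach, and the percentile was higher in the tumor at 2943 members (79.0%, 77.7 to 80.3). Over all normal summits with a tumor summit within 1 kb, that share was 89.8%. Those pairs set the best tumor summit within 1 kb against the normal summit's own percentile, whereas members take the best summit in both lists. Gene ends are also among the pairs. The values over all pairs, here and below, are thus not a like measure, and no ordering against members is drawn from them. With the tumor list shortened to its best 22386 summits, 2544 members kept a tumor summit (68.3%, 66.8 to 69.8), and 54.2% of these ranked higher in the tumor (52.2 to 56.1), against 68.3% over all such pairs. The median difference, tumor minus normal, was 16.6 percentile points in full lists and 0.918 points at equal length, against 22.1 and 4.69 points over all pairs. Each tissue has 1 H3K27ac library, so none of these differences has a replicate check.

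Below that median the members split in several directions. In the full lists 1388 members ranked over 25 points higher in the tumor (37.3%, 35.7 to 38.8), 1924 within 25 points and 413 over 25 points lower in the tumor (11.1%, 10.1 to 12.1). Of the 413, 12.1% lay at a listed start, against 40.25% of the members within 25 points. At starts the tumor and normal H3K27ac scores had a Spearman correlation of 0.837 across members, and over 1 kb from any listed start 0.491. The members far from starts thus differed more between the 2 libraries.

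**Figure D3:**
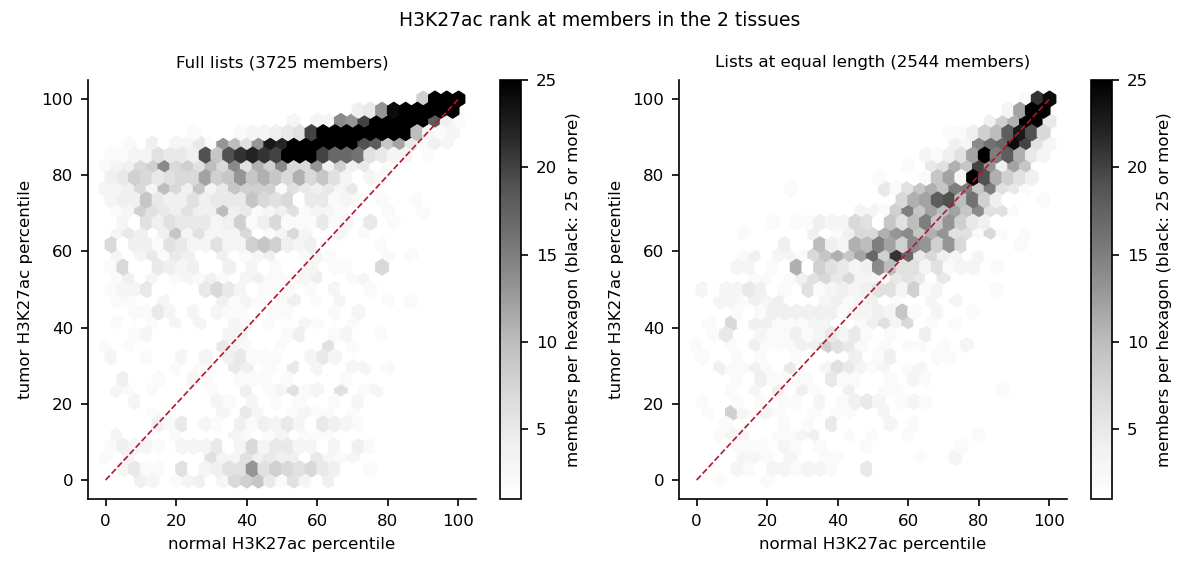
H3K27ac percentile at members in the tumor list (vertical axis) against the normal list (horizontal axis), for full lists (left, 3725 members) and with the tumor list at the length of the normal list (right, 2544 members). Shading counts members per hexagon and the dashed line marks equal ranks; in full lists 79.0% of members lie above it, and at equal length 54.2%.

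Single members show both directions. The member beside Mir210, which encodes a microRNA known as a target of hypoxia signalling, lay 512 bp before the hairpin and 3347 bp from Rassf7. It had YAP scores of 29.5 in YAP tumor 1 and 37.6 in YAP tumor 2, and H3K27ac scores of 90.1 in the tumor and 3.79 in the normal stomach, 81.85 percentile points higher in the tumor in full lists and 57.3 points at equal length. At Meis2, a homeobox gene, the H3K27ac scores were 56.0 in the tumor and 2.95 in the normal stomach, and YAP scored 7.32 and 18.6. In the opposite direction, the member 5987 bp from Dsp, which encodes the desmosome protein desmoplakin, had H3K27ac scores of 4.58 in the tumor and 33.3 in the normal stomach, a difference of -71.03 percentile points in full lists, tumor minus normal, with YAP scores of 9.60 and 20.7. The members at Babam2 (-73.65 points), Myh7 (-71.84) and Ptpa (-67.95), 16234, 9480 and 5989 bp from a gene end, also ranked far lower in the tumor. Another pair lay beyond the 50 kb used for assigning genes, at 72923 bp from Slc22a8 (-69.39 points) and 319099 bp from Noct (-69.37). None of these members that ranked lower, Dsp included, had a tumor summit in the shortened list, so they have no value at equal length. The largest differences the other way in full lists were at Bicd2 (85.3 points), Dhrs3 (83.9) and Mrpl39 (82.0). At equal length they were 59.4, 57.1 and 48.5 points. The member at Mrpl39 then ranked below those at Rassf7, Agfg1 (53.97 points), Olfr545 (53.64), Tarbp2 (51.05), Ehd1 (50.45), Fos (49.21), Ttc39a (48.86) and Meis2 (48.77). All of these are single sites with 1 H3K27ac library per tissue.

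The genes nearest to the members were counted next. A member lay within 50 kb of an end of 2501 of 21631 protein-coding genes (11.6%). These genes were long, with a median length of 31.9 kb against 17.3 kb over all protein-coding genes. Members lay inside a protein-coding gene in 61.7% of cases (60.2 to 63.3), against 52.1% of all distal sites, and among members over 1 kb from any listed start in 52.7% (50.7 to 54.6). The 20 gene lists compiled hold 387 genes, of which 87 had a member (22.5%). The lists were not matched to other genes for length and were chosen with earlier results known. Of all protein-coding genes, 7.61% had a distal site with H3K27ac in the tumor only, 5.2% in the normal stomach only and 27.4% in neither. Where given below, a list's shares at these other kinds follow in that order. Hippo, YAP and TAZ target, junction and gastric factor genes exceeded all genes at each kind, so such an excess is not particular to members.

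Fos and Jun family genes had members most often. Of 14 AP-1 genes, 9 had a member (64.3%, 38.8 to 83.7), with a median gene length of 9.39 kb. The shares at the other kinds of site were 21.4%, 7.14% and 28.6%. Fos had 5 members. They lay 22011 and 18507 bp before the gene, 1480 bp before it, and 8806 and 9552 bp past its end. Their YAP scores in YAP tumor 1 were 10.1, 14.9, 6.496, 24.7 and 3.16 in that order, and in YAP tumor 2 25.3, 28.6, 13.4, 34.1 and 6.78, so the strongest site in both libraries was the one 8806 bp past the gene. H3K27ac at that site scored 183.5 in the tumor and 60.4 in the normal stomach, at percentiles 93.82 and 89.15 in full lists. At equal length this tumor score ranked at percentile 81.64, below the normal 89.15. At 22011 bp before Fos, 172 bp before a listed start of Gm38543, H3K27ac scored 14.0 in the tumor and 12.52 in the normal stomach. Jun, Junb and Jund had 1 member each, between 1096 and 1316 bp from a gene end, and that of Jund had the best rank of the 3, with YAP scores of 18.6 and 41.5. Fosb had 2 members, and H3K27ac at the one inside the gene scored 23.5 in the tumor and 44.2 in the normal stomach. Fosl2, Batf, Atf3 and Maff had 1, 2, 1 and 2 members. The Fosl2 member, 25557 bp from the gene, had weak H3K27ac in both tissues, with scores of 7.82 in the tumor and 9.59 in the normal stomach. In full lists 13 of the 16 members of this list ranked higher in the tumor, a share to be read against the 79.0% of all members. Such counts, here and below, were made in full lists only, and at equal length the share over members was 54.2%. Members near the same H3K27ac summit share its rank, so the counts can repeat a value.

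Genes of the Hippo pathway had members at 11 of 28 (39.3%, 23.6 to 57.6), and other kinds of site at 21.4%, 10.7% and 60.7%. Yap1 itself, whose product was induced, had 1 member 1053 bp from its end and 1011 bp after a listed start, with YAP scores of 10.6 in YAP tumor 1 and 18.5 in YAP tumor 2 and H3K27ac scores of 182.1 in the tumor and 38.1 in the normal stomach. The TEAD genes Tead1 and Tead4, which encode DNA-binding partners of YAP, had 1 each. The Tead4 member had YAP scores of 17.2 and 22.7 and that of Tead1 6.41 and 4.44. Among upstream regulators, Taok1, a kinase that activates the Hippo kinases, had the best-ranked member of the list, 94 bp before a listed Taok1 start, with YAP scores of 29.0 and 45.8. Fat1, an atypical cadherin upstream of the pathway, had 2 members inside the gene with YAP scores of 10.1 and 13.5 in YAP tumor 1 and 16.4 and 25.8 in YAP tumor 2. Wwc1, Amotl1, Amotl2, Map4k4, Ptpn14 and Vgll4 also had at least 1. No member was assigned to the kinase genes Stk3, Stk4, Lats1 and Lats2 or to Sav1 and Nf2.

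Among 28 genes used as readouts of YAP and TAZ, 9 had a member (32.1%, 17.9 to 50.7), namely Ccn1, Amotl1, Amotl2, Ptpn14, Wwc1, Myof, Dock5, Anln and Tead1. Shares at the other kinds of site were 25%, 10.7% and 57.1%. Ccn2 and Ankrd1, the best known of these targets, had no member and no distal site. Amotl2, an inhibitor of YAP in a feedback loop, had 2 members of 7 distal sites. One lay inside the gene with YAP scores of 3.09 in YAP tumor 1 and 4.89 in YAP tumor 2 under very strong H3K27ac, 289 in the tumor and 126.3 in the normal stomach. The other lay 46293 bp away with YAP scores of 12.9 and 37.2 and H3K27ac scores of 21.0 in the tumor and 5.18 in the normal stomach. The order of the 2 sites by YAP was thus opposite to their order by H3K27ac in both tissues. Anln, which encodes a cytokinesis protein, had the best-ranked member of the list, with YAP scores of 34.2 and 37.0, 22266 bp from the gene and 70 bp before the start of 9530077C05Rik. At Dock5, a guanine exchange factor gene, H3K27ac scored 44.8 in the tumor and 3.41 in the normal stomach.

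**Figure D4:**
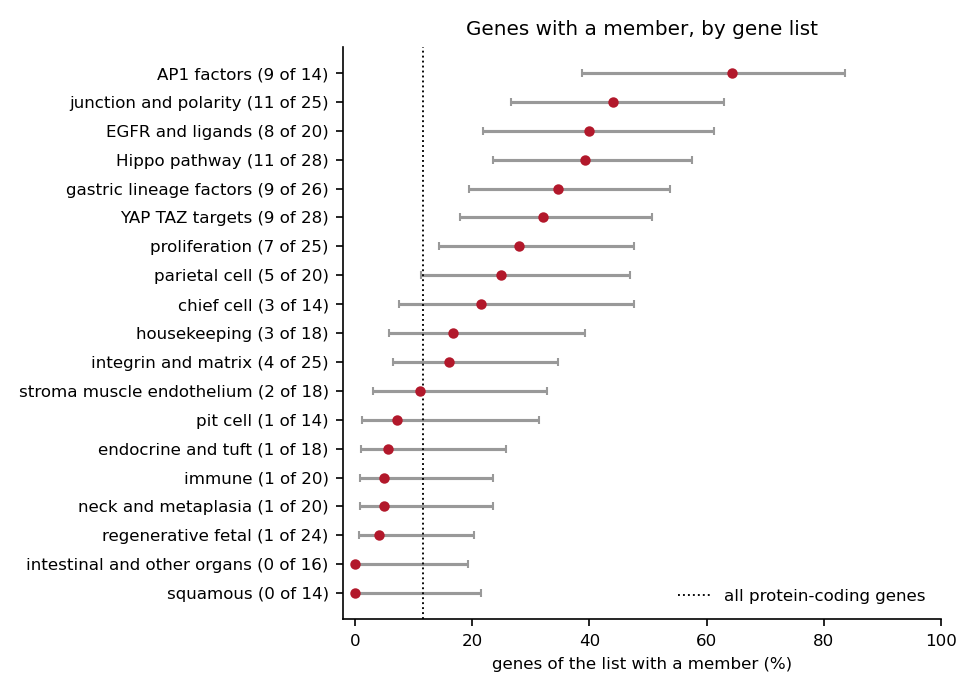
Share of the genes of each list reported here with a member within 50 kb of an end, with Wilson 95% intervals; the numbers beside each name are genes with a member and genes in the list. The dotted line is the 11.6% of all protein-coding genes, and the AP-1 list (64.3%), the junction and polarity list (44.0%) and the EGFR list (40%) lie farthest to the right of it.

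Epithelial structure genes followed. Of 25 junction and polarity genes, 11 had a member (44.0%, 26.7 to 62.9), and 24%, 20% and 64% had a site of the other kinds. The site inside Mpp7, which encodes a scaffold protein of tight junctions, was the best-ranked member of all, with YAP scores of 119.2 in YAP tumor 1 and 166.2 in YAP tumor 2 and H3K27ac scores of 269.2 in the tumor and 58.6 in the normal stomach. F11r, the gene of junctional adhesion molecule A, had a member with YAP scores of 26.3 and 40.5. Cdh1, the gene of E-cadherin, had 2 weak ones inside the gene, with YAP scores of 3.98 and 4.16 in YAP tumor 1 and 10.1 and 6.56 in YAP tumor 2. In full lists 8 of the 16 members of this list ranked higher in the tumor, beside 79.0% of all members. The members at Ctnnd1 shared the same H3K27ac scores, as did those at Prkci. Integrin and matrix genes, with a median length of 67.8 kb, had members at 4 of 25 (16%, 6.40 to 34.6), an interval that includes the 11.6% of all protein-coding genes.

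Genes of EGF receptor signalling had members at 8 of 20 (40%, 21.9 to 61.3), and other kinds of site at 5%, 20% and 55%. The Erbb2 member, 1215 bp from that receptor gene and 57 bp after a start of its neighbour Mien1, had YAP scores of 37.7 in YAP tumor 1 and 43.2 in YAP tumor 2 and H3K27ac scores of 144.3 in the tumor and 24.4 in the normal stomach. Errfi1, which encodes a feedback inhibitor of the receptor, had 2 members, one of them 2 bp before a listed Errfi1 start with YAP scores of 21.8 and 46.7. The other members belonged to Egf, Sos1, Spry2, Spry4, Dusp5 and Dusp6. Of 25 proliferation genes, 7 had a member (28.0%, 14.3 to 47.6). In full lists all 8 of their members ranked higher in the tumor, beside 79.0% of all members. At Myc, a driver of cell growth, there were 2, with H3K27ac scores of 49.6 and 67.0 in the tumor and 8.24 and 8.88 in the normal stomach.

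Genes of stomach lineages followed. Of 26 gastric transcription factor genes, 9 had a member (34.6%, 19.4 to 53.8), and 19.2%, 26.9% and 69.2% had a site of the other kinds. Elf3, an epithelial ETS factor, had the best-ranked member, with YAP scores of 22.3 in YAP tumor 1 and 45.7 in YAP tumor 2. Xbp1, a factor of secretory cells and of chief cells, had 5 members, all upstream, between 8028 and 35163 bp from the gene. Their YAP scores in YAP tumor 1 were 26.2, 4.75, 3.64, 5.90 and 3.61 from the farthest to the nearest, and in YAP tumor 2 27.5, 7.02, 7.59, 9.46 and 12.1. H3K27ac at 28510, 22053 and 21139 bp scored 4.16, 5.86 and 5.32 in the tumor and 14.9, 25.5 and 24.1 in the normal stomach, whereas at 35163 bp it scored 42.4 in the tumor and 19.3 in the normal stomach. In full lists the difference, tumor minus normal, was 18.4 percentile points at 35163 bp and -59.95 at 21139 bp, both on the same flank of 1 gene. Both sites also lay within 1 kb of a listed start of Gm11963, 402 bp before and 868 bp after it. The site at 22053 bp lay 46 bp before that start. The rise at 35163 bp held in full lists only. At equal length a higher tumor score, 43.8 beside Mir1905, ranked at percentile 39.05, below the normal 60.6 at 35163 bp. Foxa1 also had both directions in full lists over 2 members. H3K27ac there scored 91.4 in the tumor and 11.9 in the normal stomach at 4545 bp, and 3.07 and 9.24 at 24631 bp. Parietal genes had members at 5 of 20 (25%, 11.2 to 46.9). In full lists 3 of the 7 members ranked higher in the tumor, beside 79.0% of all members. Among these, the Ezr members 45365 and 46303 bp from the gene shared the same H3K27ac scores. At Slc9a4, a sodium-proton exchanger of parietal cells, H3K27ac scored 10.5 in the tumor and 52.5 in the normal stomach, and at Cckbr, the gastrin receptor gene, 4.58 and 8.10. Chief cell genes had members at 3 of 14 (21.4%, 7.57 to 47.6), pit cell genes at 1 of 14 (Ctse; 7.14%, 1.27 to 31.5), and neck and metaplasia genes at 1 of 20 (Wfdc2; 5%, 0.888 to 23.6). These 3 intervals and that of the parietal list include the 11.6% of all protein-coding genes.

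**Figure D5:**
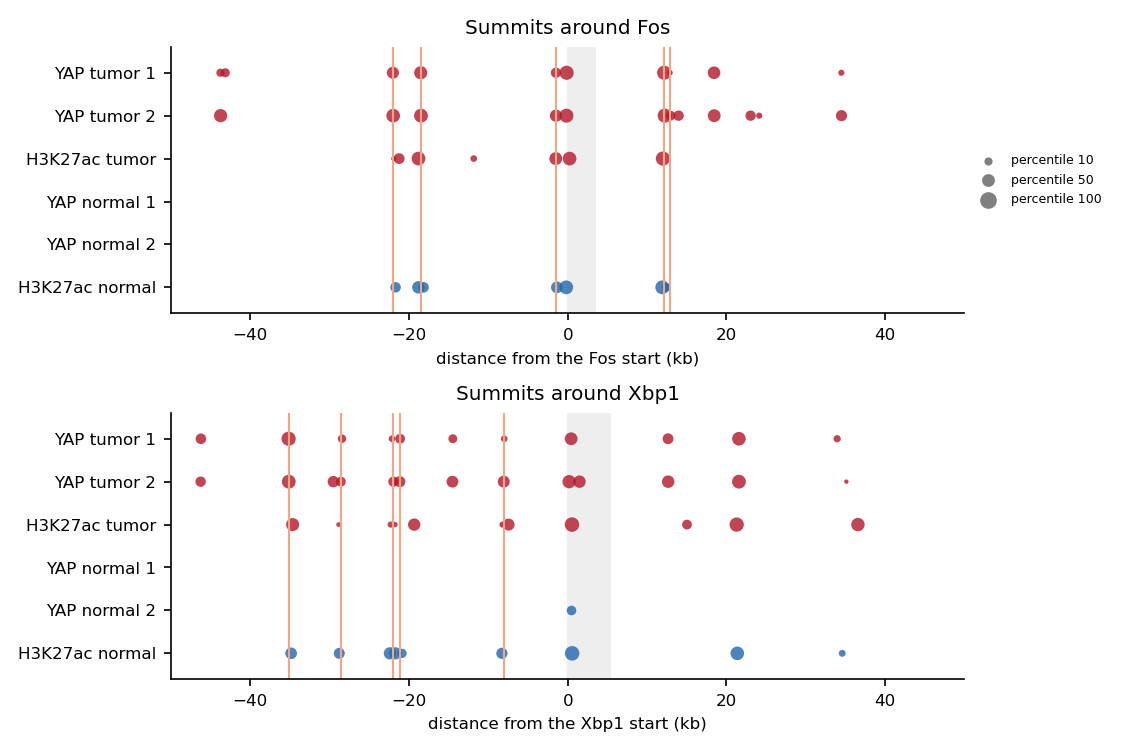
Summits of all 6 libraries within 50 kb of the starts of Fos (top) and Xbp1 (bottom), by distance from the start in kb; dot area grows with the percentile of the score in its own list. Orange lines mark the 5 members of each gene and the grey band the gene; the normal YAP libraries have no summit near Fos and 1, in YAP normal 2, near Xbp1.

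Markers of other cells had members in shares whose intervals include the 11.6% of all protein-coding genes. Immune genes had 1 of 20 (Spi1), stroma, muscle and endothelial genes 2 of 18 (Col1a1 and Pecam1), endocrine and tuft genes 1 of 18 (Syp), and squamous and intestinal or other organ genes 0 of 14 and 0 of 16, which allows a share of up to 21.5% and 19.4% (upper Wilson limits). Regenerative and fetal-type genes had 1 of 24 (Itga6). Of 18 housekeeping genes, 3 had a member (16.7%, 5.84 to 39.2).

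MicroRNA genes lay beside some members. Of 1005 hairpins in the RefSeq table, 23 had a member within 1 kb (2.29%) and 37 within 2 kb. The mature sequences of the best known of them are printed because a shared seed (bases 2 to 8, in capitals) sets shared targets, and they show which families the members lie next to. For Mir375 only the 5p arm was among the sequences used here, so its printed seed does not stand for the 3p arm.
mmu-miR-212-3p, chr11:75173443-75173464, + strand: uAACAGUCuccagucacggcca
mmu-miR-132-3p, chr11:75173723-75173744, + strand: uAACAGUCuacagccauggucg
mmu-miR-193a-3p, chr11:79712009-79712030, + strand: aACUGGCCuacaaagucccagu
mmu-miR-193b-3p, chr16:13449570-13449591, + strand: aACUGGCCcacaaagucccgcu
mmu-miR-17-5p, chr14:115043684-115043706, + strand: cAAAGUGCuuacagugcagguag
mmu-miR-20a-5p, chr14:115044183-115044205, + strand: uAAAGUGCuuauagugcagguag
mmu-miR-200c-3p, chr6:124718324-124718346, - strand: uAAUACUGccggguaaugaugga
mmu-miR-141-3p, chr6:124717917-124717938, - strand: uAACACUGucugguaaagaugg
mmu-miR-375-5p, chr1:74900696-74900717, - strand: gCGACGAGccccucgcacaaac
mmu-miR-210-3p, chr7:141221407-141221428, - strand: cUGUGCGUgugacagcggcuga
mmu-let-7i-5p, chr10:122985698-122985719, - strand: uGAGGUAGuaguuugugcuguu
mmu-miR-203-3p, chr12:112130927-112130948, + strand: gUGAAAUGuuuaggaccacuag
mmu-miR-148a-3p, chr6:51269829-51269850, - strand: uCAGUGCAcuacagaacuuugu
mmu-miR-192-5p, chr19:6264857-6264877, + strand: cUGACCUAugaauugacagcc
mmu-miR-194-5p, chr19:6264658-6264679, + strand: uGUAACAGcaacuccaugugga

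Both miR-212-3p and miR-132-3p have the seed AACAGUC, and 1 member lay inside the Mir212 hairpin and 285 bp before Mir132. It had YAP scores of 12 in YAP tumor 1 and 18.8 in YAP tumor 2, with H3K27ac scores of 36.9 in the tumor and 3.82 in the normal stomach. Mir193a and Mir193b lie on different chromosomes, share the seed ACUGGCC and each had a member, 892 and 1672 bp before the hairpin, with YAP scores of 26.9 and 3.14 in YAP tumor 1 and 32.4 and 5.52 in YAP tumor 2. The cluster of Mir17, Mir18, Mir19a and Mir20a, known for driving proliferation, had 1 member 1443 bp before Mir17, with YAP scores of 19.9 and 23.7. Mir200c and Mir141, which restrain epithelial-mesenchymal transition, had 1 member before both, with H3K27ac scores of 205.1 in the tumor and 46.4 in the normal stomach and YAP scores of 7.68 and 10.95. Mir375, 298 bp from a member, had the strongest YAP of these genes, with scores of 48.8 in YAP tumor 1 and 64.9 in YAP tumor 2. At Mirlet7i the member lay inside the hairpin and H3K27ac was near the top of both lists. It scored 317.4 in the tumor and 170.9 in the normal stomach, at percentiles 99.34 and 99.54 in full lists. Most of these members lay upstream of the hairpin on its strand.

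Several of the best-ranked members lay close to normal YAP summits or non-coding genes. Of the 12 members with the best mean YAP rank, 7 had a normal YAP summit over 200 bp and up to 1000 bp away, as had 73 of all 3725, and 6 lay within 1 kb of the end of a non-coding gene. The largest cluster, with members joined over the distance commonly used to stitch neighbouring enhancers, held 8 members on chromosome 6 from 47655114 to 47685398, among genes named Gm36327, Gm40363, Gm40364, Gm40365, Gm40367 and Gm40369 beside an Rn4.5s gene, with YAP scores from 84.2 to 138.8 in YAP tumor 1 and from 74.8 to 114.4 in YAP tumor 2. The next largest cluster, of 5 members, lay at Nanos3 and Zswim4, with YAP scores from 2.20 to 16.4 and from 3.78 to 28.2. Repeats and mappability were not measured here. Where gene copies are near-identical, reads can be placed at more than 1 of them, and how the authors treated such reads is not given in the sources used here, so the values of the chromosome 6 cluster are uncertain. In 3 of the 12 the nearest non-coding gene was a gene annotated as snRNA inside Tex14 (Rnu3b1, Rnu3b2 and Rnu3b4), 48 to 68 bp away, with tumor H3K27ac scores from 447.1 to 465.4 and normal scores from 272.5 to 301.4.

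Some annotated kinds of small RNA gene recurred beyond the best members, and others did not. The kinds are the labels of the annotation and were not checked, also for the genes inside Tex14. An end of an snRNA gene was the nearest non-coding gene end within 1 kb for 29 members (0.779%, 0.543 to 1.12), against 0.0443%, 0.114% and 0.113% of the sites with H3K27ac in the tumor only, in the normal stomach only and in neither. Over all distal sites that share was 0.233%. For tRNA genes it was 37 members (0.993%, 0.722 to 1.37), against 0.797% (0.505 to 1.26), 0.686% (0.393 to 1.20) and 0.312% (0.225 to 0.431), and 0.534% of all distal sites. The tRNA interval of members overlaps those of the sites with H3K27ac in 1 tissue. For snoRNA genes it was 1 member (0.0269%), against 0.177%, 0% and 0.139%. For rRNA genes it was also 1 member, against 1.15%, 0% and 0.00866%. A cluster of 4 members at Mreg and Pecr on chromosome 1 lay 71 to 88 bp from 4 snRNA genes, with H3K27ac scores up to 436.1 in the tumor and 281.3 in the normal stomach. BC107364 had 6 members, and all of them lay within 1 kb of small or telomerase RNA genes, between 11 and 102 bp away. Small RNA genes of these kinds are present in many copies, and the limit on read placement given above holds for them too.

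Otherwise members were scattered. Most were single, 2887 with no other within that distance (77.5%, 76.1 to 78.8), and 162 formed 48 clusters of 3 or more (4.35%, 3.74 to 5.05). Mrps23 had 8 members assigned to it, 5 of them inside its neighbour Cuedc1. Gse1 and Maml3, both long genes, held 8 inside each, and Maml3 encodes a coactivator of Notch. The 8 sites in Maml3 had YAP scores from 4.19 to 26.5 in YAP tumor 1 and from 10.1 to 38.8 in YAP tumor 2. The best of them, 3152 bp from a gene end, also had the strongest H3K27ac of the 8, with scores of 127.8 in the tumor and 39.2 in the normal stomach. By chromosome, members were 28.9% of the distal sites on X (71 of 246) and between 15.9% and 23.3% on the autosomes.

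The edges of the rule passed through the middle of the values. The member with the widest accepted pair of summits, 200 bp apart at Cacna1b, had YAP scores of 8.53 in YAP tumor 1 and 10.9 in YAP tumor 2, and the first pair outside, 1 bp wider, at Itprid2, had 19.5 and 38.0. By gene distance the first member inside lay 1004 bp from an end of Stk24 and the first site outside 1000 bp from an end of Dennd3. By normal YAP they lay 204 bp away at Rbbp8 and 198 bp away at Slc22a15. By tumor H3K27ac they were 1000 bp away at Fblim1 and 1004 bp at Gstt3, and by normal H3K27ac 990 bp at Rcor3 and 1004 bp at Ttc28.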

How the data were processed

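Chromatin immunoprecipitation with antibodies to YAP and H3K27ac was sequenced by the submitters. Bowtie2, MACS2 and the build GRCm38 (mm10) are named in the submitters' processing notes; for versions, thresholds, control libraries and reads with several placements, nothing is stated. The authors deposited 1 summit list per library, whose score is a −log10 p-value or q-value. Depth is unknown.

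Scores were turned into percentiles within each list. Sites were matched, classed and set against RefSeq genes (GRCm38), transcript start windows and microRNAs with Python 3.11.15, numpy 2.4.6, pandas 2.3.3, scipy 1.17.1 and matplotlib 3.10.9, checked on simulated data. Shares have Wilson 95% intervals. Every library entered the choice of members, so no test was made. Genes were named by a rule, though not every gene it gives is printed: the members of best YAP rank, genes with most members, the largest H3K27ac differences, the best genes of each list, the largest clusters, members near non-coding genes and those at each threshold; other named genes and microRNAs were chosen after their values were seen. The members and lists were chosen with earlier results of these data known. Motifs planned for 150 bp on each side of a site were searched in start windows instead, because no genome sequence was used. The results of 1 gene list are not reported here.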

Additional observations from a re-analysis of the deposited data

How the results depend on the processing

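No paired analysis was possible because the results come from no test. Of 108 values of the 7 main results under other settings, 81 stayed within their error (counts within 1.5 times) and 27 moved. A reversal could be called only for the H3K27ac difference, whose sign stayed the same. The member count was 1820 with YAP scores of at least 10 in both libraries and 2431 over 1 kb from every listed start, and leaving out 1 YAP library gave 3738 to 5402. The median YAP percentile (69.77) was 84.69 with scores of at least 10 and 60.93 to 70.28 with 1 YAP library left out. The flanked share in the tumor (8.16%) was 7.28% with H3K27ac within 2 kb, 3.58% with lists of equal length, 3.14% and 12.99% with flanks of 500 bp and 2 kb, and 8.05% to 9.13% with 1 library left out. The H3K27ac difference, tumor minus normal (16.64 points), was 0.918 at equal length, 15.25 and 12.37 with scores of at least 5 and 10, and 16.39 to 18.92 with 1 library left out. The share inside genes (61.7%) was 54.56% over 5 kb from gene ends, 68.55% at equal length, 52.65% over 1 kb from every listed start and 67.06% over 1 kb from genes of any biotype. The list genes with a member (87) numbered 46 with scores of at least 10 and 49 with gene ends within 10 kb. The share at listed starts (32.7%) was 26.09% over 5 kb from gene ends, 35.38% and 29.73% with H3K27ac within 500 bp and 2 kb, 42.3% at equal length, 35.25% and 42.53% with scores of at least 5 and 10, 26.75% over 1 kb from genes of any biotype, and 30.75% to 32.84% with 1 library left out. The cause of these moves was not tested, beyond the different sites each setting keeps. The settings on listed starts and on genes of any biotype were chosen after seeing the data. Motif searches around the sites themselves, at 50, 150 and 250 bp, were not run. With 1 H3K27ac library per tissue, a tissue difference and a library difference cannot be told apart.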
